A study of Mus musculus with 60 samples.

Results

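The 10 hearts collected at zeitgeber time (ZT) 16, 4 h into the dark phase of a 12 h light and 12 h dark day (lights on at ZT0), are described here: 5 of dnOGAh mice and 5 of control (CON) mice, chosen by their genotype and time labels out of 60 hearts in the series. All mice were male C57BL/6. The dnOGAh mice carried 2 transgenes, αMHC-rtTA, a doxycycline-controlled activator driven by a cardiomyocyte promoter, and TRE-EGFP-dnOGA, a rat splice variant of O-GlcNAcase (OGA) that acts as a dominant negative and that the activator switches on. CON mice were littermates with αMHC-rtTA alone. All mice of both genotypes had the same doxycycline, 100 µg by injection at 10 weeks of age and then 1 g/kg in the diet, and hearts were taken 2 weeks later, at 12 weeks of age. Biventricular tissue was used, so the RNA comes from all cell types of the ventricles while the transgene is expressed in cardiomyocytes. PolyA RNA was sequenced with 5 hearts per genotype at ZT0, ZT4, ZT8, ZT12, ZT16 and ZT20, the labels' ZT24 being ZT0. The questions are how the genotypes differed at ZT16 and whether that difference was unlike the one at the other 5 times.

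O-GlcNAcylation is the addition of single N-acetylglucosamine residues to serines and threonines of nuclear, cytosolic and mitochondrial proteins. OGT adds the sugar, OGA removes it, and the donor UDP-GlcNAc is made from glucose, glutamine and other nutrients by the hexosamine pathway. In the circadian clock BMAL1 and CLOCK (or NPAS2) drive transcription through E-boxes, PER and CRY proteins repress that drive, and REV-ERB and ROR proteins set the rhythm of Bmal1. Clock components are themselves O-GlcNAcylated, and in the heart the clock drives daily rhythms of metabolic, contractile and electrical genes, partly through the transcription factors DBP, TEF and HLF.

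At ZT16 a CON library held 10135394 to 27188407 counts in genes and a dnOGAh library 24292185 to 33904498, with higher totals in dnOGAh hearts (exact permutation test of the means, two-sided, p = 0.0238). The 37 genes of the mitochondrial genome took 30.9% ± 2.79 (SD, n = 5) of counts in CON and 17.2% ± 4.00 (SD, n = 5) in dnOGAh hearts. The groups did not overlap, and p = 0.00794 is the smallest value that the exact permutation test of 5 against 5 can give. CON replicate 1 stood apart. It had a count for 16054 genes, the fewest of all 60 libraries, against 18520 to 22230 in the other CON and 20128 to 25318 in the dnOGAh libraries of ZT16, and its score on the second principal component was -50.7, against 10.7 to 15.0 in the other CON hearts. The first component (73.5% of the variance) separated the genotypes, and dnOGAh replicate 1 (-28.7) lay nearest the CON hearts (46.7 to 59.7). Results that rest on these libraries are given with and without them.

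Expression levels are counts per 1000000 counts (CPM) on library sizes scaled by TMM, a log2 fold change is dnOGAh over CON, and a gene is called when the adjusted p of edgeR's quasi-likelihood test (Benjamini-Hochberg over the 18119 genes tested, all 60 libraries in one fit) is under 0.05. At ZT16 7387 genes (40.8%) were called, 4185 higher (23.1%) and 3202 lower (17.7%) in dnOGAh hearts. Of these 2701 were more than 2-fold higher (14.9%) and 1048 more than 2-fold lower (5.78%). For 6339 of the tested genes (35%) the 2 groups of 5 hearts did not overlap, with dnOGAh higher for 3534 (19.5%) and lower for 2805 (15.5%). The median log2 fold change of all tested genes was 0.05.

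Oga mRNA, under its older symbol Mgea5 and possibly with reads of the rat transgene among its counts, was at 46.7, 61.1, 60.2, 55.6 and 52.6 CPM in the 5 CON hearts and at 416, 446, 272, 522 and 659 CPM in the 5 dnOGAh hearts, in the order of replicates 1 to 5. Every dnOGAh heart at ZT16 was thus above every CON heart, as the labels say. The log2 fold change was 3.07 (standard error 0.344, adjusted p = 3.73e-10, edgeR's quasi-likelihood test), and at the other times it ranged from 2.84 to 3.10. Ogt mRNA was at 55.4, 59.6, 59.4, 60.4 and 59.8 CPM in CON and 60.5, 70.8, 70.0, 64.3 and 66.9 CPM in dnOGAh hearts. The groups do not overlap, the highest CON and the lowest dnOGAh heart being less than 1 CPM apart, and the log2 fold change of 0.17 did not pass (adjusted p = 0.133, 95% interval -0.01 to 0.36). Of the 9 tested genes of the hexosamine pathway and O-GlcNAc cycling, 6 were higher and 0 lower (23.1% and 17.7% over all genes). The 6 include Oga itself, whose counts may hold transgene reads. Gfpt2, an isoform of the rate-limiting amidotransferase of the pathway, was at 13.0, 16.5, 13.3, 11.9 and 16.0 CPM in CON and 29.3, 34.1, 27.3, 32.4 and 30.8 CPM in dnOGAh hearts, with a log2 fold change of 1.12 (standard error 0.209). Gfpt1, the other isoform, had 0.40 and was not called. Nagk (0.72), a salvage kinase, and Pgm3 (1.03), a mutase of the pathway, were higher. Uap1, which makes UDP-GlcNAc, was higher at ZT16 (0.38, adjusted p = 0.00680) but at 0.295 (adjusted p = 0.0672) without replicate 1 of both genotypes.

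Of the 10 core clock mRNAs 1 was called at ZT16, with 0 higher and 1 lower (23.1% and 17.7% over all genes). It was Cry2, which encodes a repressor of BMAL1 and CLOCK. Cry2 was at 46.4, 45.0, 39.3, 39.1 and 42.0 CPM in CON hearts and 27.1, 23.1, 20.6, 24.6 and 24.4 CPM in dnOGAh hearts. All 5 dnOGAh hearts were below all 5 CON hearts, and the log2 fold change was -0.82 (standard error 0.162, adjusted p = 4.45e-05, edgeR's quasi-likelihood test). Cry2 was lower in dnOGAh hearts at each of the other times as well, with log2 fold changes of -1.02 to -0.50, all called. Arntl, the gene of BMAL1, was at 4.33, 3.13, 5.62, 4.59 and 4.52 CPM in CON and 5.29, 9.26, 4.07, 4.92 and 4.73 CPM in dnOGAh hearts, overlapping groups with dnOGAh replicate 2 above the rest. Nr1d1 (REV-ERBα) was at 26.3, 15.4, 16.5, 14.6 and 14.2 CPM in CON and 15.6, 16.9, 18.1, 17.6 and 13.4 CPM in dnOGAh hearts, and CON replicate 1 was the one CON heart above the dnOGAh hearts. The 95% interval of the log2 fold change was -0.17 to 0.88 for Arntl and -0.59 to 0.39 for Nr1d1. The remaining uncalled members were Per1 (0.39), Clock (-0.03), Per2 (-0.02, and above 0 with DESeq2 size factors), Per3 (-0.29), Nr1d2 (-0.41), Npas2 (-0.46) and Cry1 (-0.38). Cry1, a second CRY repressor, was close to the threshold (adjusted p = 0.0574) and was called in some alternatives and not in others. Among those that called it were the fit without CON replicate 1 (adjusted p = 0.0136) and scaling without mitochondrial genes (adjusted p = 0.0446). It was also called by limma voom with sample weights (adjusted p = 0.000223). With only the 10 ZT16 libraries in the fit 4 of the 10 were called, Cry1, Cry2, Nr1d2 and Per1.

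At the other times 3 (ZT0), 3 (ZT4), 6 (ZT8), 2 (ZT12) and 3 (ZT20) of the 10 core clock mRNAs were called. Over all genes the shares called were 42.5%, 32.7%, 46.1%, 31.8% and 40% in the same order, and 40.8% at ZT16. Arntl in CON hearts was lowest at ZT12 (1.09 ± 0.576 CPM, SD, n = 5) and was at 4.44 ± 0.887 CPM (SD, n = 5) at ZT16, where the dnOGAh hearts had 5.65 ± 2.06 CPM (SD, n = 5). Its log2 fold change was 1.16 at ZT8 and 1.48 at ZT12, both called, and 0.35 at ZT16. Nr1d1 was highest at ZT8, at 82.7 ± 10.0 CPM in CON and 50.04 ± 9.97 CPM in dnOGAh hearts (SD, n = 5 each), and lay at 17.4 ± 5.04 and 16.3 ± 1.88 CPM (SD, n = 5 each) at ZT16. For none of the 10 genes did the genotype difference at ZT16 pass as unlike the mean of those at the other 5 times. No test of a change with time within a genotype is given for these genes. For the ZT16 difference minus the mean of the other 5 times, the smallest unadjusted p of the 10 genes was 0.186, for Npas2. A mean over times cannot show a difference from single times where their values have opposite signs. For Arntl the values at ZT0, ZT4 and ZT20 were -0.29, -0.05 and -0.31, and ZT16 minus the mean was -0.04. Against ZT12 alone, a comparison added after the data were seen, the Arntl difference at ZT16 was lower by a log2 value of -1.12 (standard error 0.401, unadjusted p = 0.00707, adjusted p = 1.00). Arntl against ZT8 alone (-0.81, unadjusted p = 0.0377) and Nr1d1 against ZT4 alone (0.74, unadjusted p = 0.0347) did not pass either (edgeR's quasi-likelihood test).

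**Figure D1:**
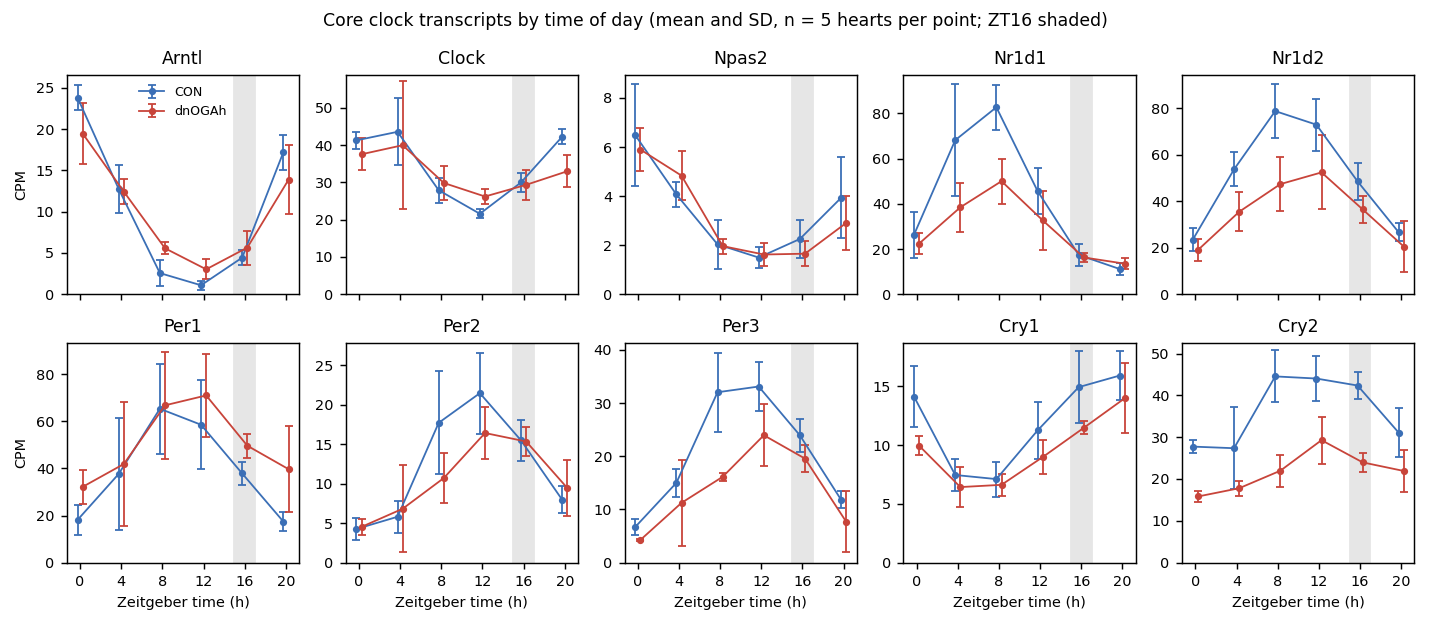
Levels of the 10 core clock mRNAs (y axis, CPM, linear from 0) against zeitgeber time (x axis, h) in CON (blue) and dnOGAh (red) hearts, as means with SD bars of 5 hearts per point. At ZT16 (shaded) Cry2 is lower in dnOGAh hearts, the one gene of the 10 that was called there.

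Among 12 clock output factors and clock repressors, 2 were higher and 5 lower at ZT16 (23.1% and 17.7% over all genes), and the list's median log2 fold change was -0.59 against 0.05 over all genes. Tef, a PAR bZIP factor that binds D-boxes, was at 162, 152, 150.4, 143 and 135 CPM in CON and 105, 69.3, 75.7, 83.6 and 87.2 CPM in dnOGAh hearts. Every dnOGAh heart was below every CON heart, at -0.82 on the log2 scale (standard error 0.152, adjusted p = 1.80e-05, edgeR's quasi-likelihood test). Hlf, of the same family, was lower (-1.55). Dbp, the third member, was at 21.3, 29.96, 24.3, 26.8 and 28.7 CPM in CON and 15.9, 8.96, 19.8, 18.9 and 16.7 CPM in dnOGAh hearts, groups that do not overlap, yet its log2 fold change of -0.70 did not pass (adjusted p = 0.0527). Dbp was called under 8 alternatives, among them the fit of the 10 ZT16 libraries alone (adjusted p = 0.00422). Klf15, a Krüppel-like factor that governs cardiac lipid and amino acid use, was at 50.2, 42.9, 30.4, 56.4 and 57.5 CPM in CON and 18.6, 16.4, 14.6, 15.8 and 19.2 CPM in dnOGAh hearts (log2 fold change -1.49, standard error 0.276). Klf9 (-0.90), another Krüppel-like factor, was also lower. Bhlhe40, a repressor at E-boxes, was higher, at 30.5, 22.7, 21.5, 24.5 and 16.6 CPM in CON and 49.3, 63.8, 48.2, 52.3 and 58.9 CPM in dnOGAh hearts (log2 fold change 1.23, standard error 0.216), and its relative Bhlhe41 was higher as well (0.57). Nfil3 (-0.08), a repressor at D-boxes, and Ciart, Cipc and Rora were not called.

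The clock factors and repressors called at ZT16 number 8, and 6 of them matched RefSeq promoter windows (GRCm38.p6), from which the 250 bases before the start were read. The E-box CACGTG, which reads the same on both strands, is in the windows of 3 of the 6 genes (4 of their 7 windows) and in 6.02% of the 32851 windows of all genes. The D-box TTATGTAA (0.82% of windows) and the motif AGGTCA of ROR and REV-ERB proteins (14.02%), each searched on both strands, are in none of the 7 windows of these genes. The E-boxes do not overlap any other motif searched. Windows with an E-box are shown because they belong to 2 mRNAs that were lower (Tef, with 2 starts, and Klf15) and 1 that was higher (Bhlhe41), with the E-box in capitals.
Tef, first start, chr15:81802423-81802672, plus strand: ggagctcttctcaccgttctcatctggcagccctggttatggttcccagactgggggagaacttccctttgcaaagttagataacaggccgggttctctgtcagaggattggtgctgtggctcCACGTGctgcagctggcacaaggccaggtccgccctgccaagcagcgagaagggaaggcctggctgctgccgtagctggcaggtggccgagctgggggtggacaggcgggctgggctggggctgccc
Tef, second start, chr15:81811164-81811413, plus strand: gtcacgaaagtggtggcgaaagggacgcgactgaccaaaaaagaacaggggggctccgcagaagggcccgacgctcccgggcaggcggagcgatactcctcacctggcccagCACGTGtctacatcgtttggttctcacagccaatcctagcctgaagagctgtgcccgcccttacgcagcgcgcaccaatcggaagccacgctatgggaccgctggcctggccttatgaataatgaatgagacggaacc
Klf15, chr6:90462326-90462575, plus strand: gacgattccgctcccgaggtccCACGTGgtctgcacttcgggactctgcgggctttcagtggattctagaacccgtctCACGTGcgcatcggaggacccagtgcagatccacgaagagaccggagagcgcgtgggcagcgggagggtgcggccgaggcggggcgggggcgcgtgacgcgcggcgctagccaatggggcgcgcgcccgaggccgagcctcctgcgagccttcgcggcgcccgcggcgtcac
Bhlhe41, chr6:145865421-145865670, minus strand: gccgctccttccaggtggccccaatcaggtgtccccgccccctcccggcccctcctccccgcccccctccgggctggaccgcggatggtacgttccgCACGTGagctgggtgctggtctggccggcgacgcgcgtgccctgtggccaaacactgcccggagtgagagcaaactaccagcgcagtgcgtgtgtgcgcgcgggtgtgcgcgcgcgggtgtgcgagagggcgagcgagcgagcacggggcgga
The E-box begins at -127 and -138 relative to the 2 Tef starts, at -228 and -172 for Klf15 and at -153 for Bhlhe41. A match is a sequence description, and binding was not measured. The coordinates are those of the RefSeq table and not of the assembly the reads were aligned to.

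The 10 largest rises among genes at 5 CPM or more included Sprr1a, a small proline-rich protein induced in stressed cardiomyocytes, which was at 0.324, 1.65, 2.21, 0.265 and 0.226 CPM in CON and 97.4, 339.6, 533, 248 and 121 CPM in dnOGAh hearts. The groups are far apart, although the dnOGAh hearts themselves span from 97.4 to 533 CPM, and the log2 fold change was 8.01 (standard error 1.08). Tnc, the matrix glycoprotein tenascin C, was at 1.19, 1.24, 0.947, 0.529 and 1.47 CPM in CON and 102, 197, 122, 134 and 126 CPM in dnOGAh hearts (log2 fold change 6.97, standard error 0.579). Timp1, an inhibitor of matrix metalloproteinases, was at 0.595, 4.45, 2.15, 1.59 and 3.61 CPM in CON and 195, 342, 218, 242 and 197 CPM in dnOGAh hearts (log2 fold change 6.58, standard error 0.582). CON replicate 1 was lowest of the CON hearts for Timp1 and near the middle for the other 2 genes. The other rises were Plac8 (6.87), Slfn4 (6.73), Il1rn (6.52), the interleukin-1 receptor antagonist, Ly6c2 (6.46), a surface marker of inflammatory monocytes, Slfn1 (6.33), Mmp12 (6.17), the macrophage metalloelastase, and Gm4841 (5.96). Ly6c2, Slfn1 and Slfn4 belong to families of similar copies, so reads could be lost or split between copies and their values are uncertain.

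Of the 10 largest falls, Mylk4, a myosin light chain kinase of heart muscle, was at 33.8, 45.9, 65.9, 42.2 and 40.6 CPM in CON and 9.33, 1.43, 1.15, 1.65 and 4.62 CPM in dnOGAh hearts (log2 fold change -3.66, standard error 0.539). Lrtm1, which encodes a leucine-rich repeat membrane protein, was at 338, 359, 315, 331 and 365 CPM in CON and 114, 17.2, 21.0, 22.6 and 76.8 CPM in dnOGAh hearts (log2 fold change -2.76, standard error 0.687). Adhfe1, a mitochondrial transhydrogenase of hydroxy acids, was at 69.1, 77.8, 83.6, 73.7 and 90.9 CPM in CON and 19.5, 3.83, 4.77, 5.598 and 12.0 CPM in dnOGAh hearts (log2 fold change -3.11, standard error 0.466). For all 3 genes dnOGAh replicates 1 and 5 were the dnOGAh hearts closest to CON, in that order, which is also their order on the first principal component. Other falls were Kcnv2 (-3.14), a modifying subunit of potassium channels, Acsm5 (-2.99), a medium-chain acyl-CoA synthetase, Efnb3 (-2.77), the ligand ephrin-B3, Cryba4 (-2.74), a crystallin, and Gm49477 (-2.89) and A530016L24Rik (-2.78). The 19 genes named here were also called in the same direction at the other 5 times, except Lrtm1 at ZT12 (-1.24, not called).

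**Figure D2:**
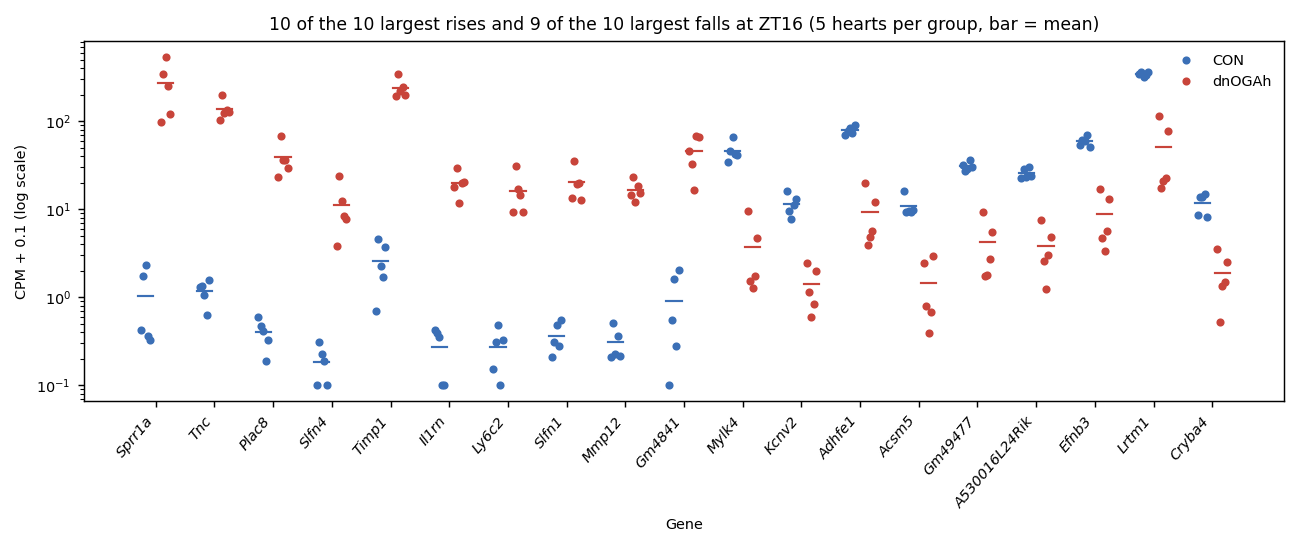
ZT16 levels (y axis, CPM + 0.1 on a log scale) of 10 genes with the largest and 9 with the smallest log2 fold changes, with 1 point per heart and a bar at the mean of 5 CON (blue) and 5 dnOGAh (red) hearts. The groups do not overlap for any of the 19 genes, which is part of how they were chosen.

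Genes of energy metabolism were lower in dnOGAh hearts at ZT16. Each of the 34 TCA cycle and respiratory chain genes tested was called lower (17.7% of all genes were), with a median log2 fold change of -0.97. Cs, citrate synthase, was at 1132, 1163, 1109.9, 1075 and 1047 CPM in CON and 675, 522, 513, 509 and 589 CPM in dnOGAh hearts. The lowest CON heart was above the highest dnOGAh heart, and the log2 fold change was -0.98 (standard error 0.168, adjusted p = 4.76e-06, edgeR's quasi-likelihood test). Idh2, the mitochondrial NADP-dependent isocitrate dehydrogenase (-1.69), and Uqcrc1 (-1.10) and Cyc1 (-1.06), subunits of respiratory complex III, were lower too. These genes are nuclear, and the lower share of counts on the mitochondrial genome given above moves with them.

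Of 35 genes of fatty acid uptake and oxidation 29 were lower and 0 higher (17.7% and 23.1% over all genes), with a median of -1.16. Mlycd, malonyl-CoA decarboxylase, which removes an inhibitor of fatty acid entry into mitochondria, was at 151, 129, 123, 143 and 135 CPM in CON and 50.7, 21.7, 28.7, 25.9 and 37.7 CPM in dnOGAh hearts (log2 fold change -2.05, standard error 0.265). Cpt2 (-1.77) and Slc25a20 (-1.202), of the carnitine shuttle, and Etfa (-1.81), an electron carrier from acyl-CoA dehydrogenases, were lower as well. The transcription factor Ppara (-1.08) and the coactivator Ppargc1a (-1.01), which drive these genes, were lower. Pdk4, the kinase that restrains pyruvate oxidation, had -0.20, and Angptl4, an inhibitor of lipoprotein lipase, had 1.24, and neither was called.

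The 4 metabolic and signaling genes that the study names were all lower at ZT16. Dgat2, which makes triglyceride, was at 547, 507, 532, 563 and 506 CPM in CON and 218, 133, 103, 140.0 and 171 CPM in dnOGAh hearts (log2 fold change -1.80, standard error 0.251). Pik3r1, the p85α regulatory subunit of phosphoinositide 3-kinase, was at 79.2, 87.1, 76.4, 80.5 and 81.3 CPM in CON and 48.3, 38.0, 40.3, 34.6 and 47.0 CPM in dnOGAh hearts (log2 fold change -0.96, standard error 0.132). Neither gene had overlapping groups. Nampt (-0.60), of NAD salvage, and Rhobtb1 (-0.96) were lower too. The study took up these genes because its authors had earlier reported them as under control of the cardiomyocyte clock. By RT-PCR it found all 4 lower in dnOGAh hearts, as a main effect of genotype over all times of day and not at ZT16 alone. The same kind of test found Bmal1 (Arntl), Npas2, Per2 and Nfil3 mRNA higher, none of which was called at ZT16 here. It found Nr1d2, Per3, Cry1, Cry2, Dbp and Tef mRNA lower, of which Cry2 and Tef were called lower here. Whether the RT-PCR hearts include these samples is not stated, so the directions here are not taken as independent evidence. In the lists around them 8 of 14 triglyceride and lipid droplet genes were lower and 1 higher. Of 18 genes of insulin and growth factor signaling 10 were lower and 2 higher. Over all genes 17.7% were lower and 23.1% higher. Pnpla2 (-1.24), the triglyceride lipase, Plin5 (-1.55) and Plin4 (-1.02), of lipid droplets, and Akt2 (-0.70) and Insr (-0.57), of insulin signaling, were lower, and the growth factor Igf1 (1.98) was higher.

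Genes of glucose uptake, glycolysis and glycogen went in both directions. Of 23 tested 14 were lower and 4 higher, beside 17.7% and 23.1% over all genes. The muscle isoform of phosphofructokinase, Pfkm, was at 1227, 1216, 1109, 1274 and 1094 CPM in CON and 664, 404, 375, 445 and 603 CPM in dnOGAh hearts (log2 fold change -1.25, standard error 0.228). The platelet isoform Pfkp was at 23.4, 45.5, 36.3, 56.0 and 53.1 CPM in CON and 67.4, 130.3, 155, 103 and 84.2 CPM in dnOGAh hearts (log2 fold change 1.34, standard error 0.200). Groups did not overlap in either case, and CON replicate 1 was the lowest heart for Pfkp. The transporter Slc2a4 (GLUT4) had -1.25 and Slc2a1 (GLUT1) 0.78, both called. Ldhb (-1.38), a lactate dehydrogenase, and Gys1 (-0.84), glycogen synthase, were lower.

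Of 18 genes of the sarcomere and of calcium handling 14 were lower and 0 higher (17.7% and 23.1% over all genes), with a median of -0.85. Atp2a2, the calcium pump SERCA2 of the sarcoplasmic reticulum, was at 7562, 7934, 7592, 8001 and 8065 CPM in CON and 4285, 2319.6, 2110.2, 2690.3 and 4054 CPM in dnOGAh hearts (log2 fold change -1.34, standard error 0.283). Myl2, the ventricular regulatory light chain, was at 14099, 12737, 13381, 14922 and 13516 CPM in CON and 7534, 3304, 2449, 3779 and 5322 CPM in dnOGAh hearts (log2 fold change -1.62, standard error 0.355). In both, dnOGAh replicates 1 and 5 were the highest dnOGAh hearts and remained below every CON heart. Pln (-1.56), the inhibitor of SERCA2, and Cacna1c (-0.75), the L-type calcium channel, were lower, and Tnnc1, Tpm1, Mybpc3 and Slc8a1 were not called. In bulk tissue fewer cells of a type and less RNA per cell cannot be told apart, here and for each list above and below.

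Of 19 ion channel and gap junction genes 16 were lower and 1 higher (17.7% and 23.1% over all genes), with a median of -0.97. Kcnip2, the subunit KChIP2 of the transient outward potassium current, was at 49.1, 48.2, 53.1, 47.9 and 44.0 CPM in CON and 14.9, 8.09, 8.78, 9.55 and 11.1 CPM in dnOGAh hearts (log2 fold change -2.21, standard error 0.394). Its log2 fold change at the other times ran from -3.35 to -2.02. Kcnd3 (-1.35), of outward potassium currents, and Hcn4 (-1.45), of the pacemaker current, were lower. Kcne1, a subunit of slow potassium channels, was higher (1.197), and Gja1, the gap junction protein connexin 43, was not called (0.12).

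Stress and fetal program genes were mostly higher, 10 of 14, with 1 lower (23.1% and 17.7% over all genes) and a median of 1.71. Ankrd1, a stretch-responsive sarcomere and nuclear protein, was at 787, 957, 1162, 964 and 926 CPM in CON and 5273, 5918, 5152, 6383 and 5125 CPM in dnOGAh hearts (log2 fold change 2.54, standard error 0.209). Nppb, the natriuretic peptide BNP, was at 80.9, 64.8, 147, 61.3 and 64.4 CPM in CON and 548, 1062, 832, 910.2 and 552 CPM in dnOGAh hearts (log2 fold change 3.22, standard error 0.407). CON replicate 3 was the highest CON heart for both and stayed below the dnOGAh hearts. Gdf15 (4.32), a stress cytokine, Ccn2 (3.05), connective tissue growth factor, and Nppa (4.46), the natriuretic peptide ANP, were higher. Myh7, the β-myosin heavy chain that usually belongs to the fetal program, was lower (-1.71).

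Immediate early genes were higher in 13 of 18 cases and lower in 0 (23.1% and 17.7% over all genes), with a median of 1.80. Junb, an AP-1 subunit, was at 12.9, 13.8, 13.1, 14.3 and 12.8 CPM in CON and 75.5, 84.7, 59.1, 68.6 and 69.5 CPM in dnOGAh hearts (log2 fold change 2.42, standard error 0.342). Egr2 (5.35), Atf3 (2.76) and Myc (2.87), transcription factors of the same kind of response, were higher. In the list of the unfolded protein and integrated stress responses, 13 of 23 tested genes were higher and 1 lower. Atf4, the main factor of the integrated stress response, was at 95.2, 83.1, 86.2, 90.8 and 74.97 CPM in CON and 161, 154, 139, 169 and 145 CPM in dnOGAh hearts (log2 fold change 0.84, standard error 0.126). Herpud1, which serves degradation at the endoplasmic reticulum, was lower, at 231, 252, 249, 317 and 207 CPM in CON and 142, 122, 100.4, 114 and 127 CPM in dnOGAh hearts (log2 fold change -1.05, standard error 0.173). The chaperone Hspa5 (BiP) had 0.005 and was not called. Of 19 heat shock genes 5 were higher and 4 lower, beside 23.1% and 17.7% over all genes. Hspb1 (1.82), a small heat shock protein, and Hspa1a (2.56), of the HSP70 family and near-identical to Hspa1b, were higher, while Hsf1 (-0.51), the heat shock factor, and Cirbp (-0.76), a cold-inducible RNA-binding protein, were lower. Of 19 glucocorticoid-responsive genes 3 were higher, 4 lower and 12 not called, a share of calls below the 40.8% over all genes. Cdkn1a (2.31), an inhibitor of the cell cycle, and Errfi1 (1.16) were the higher named members, while Fkbp5 (0.19), Sgk1 (-0.48) and Tsc22d3 (-0.34), which glucocorticoids induce in many tissues, were not called.

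Collagen mRNAs were higher in dnOGAh hearts for 21 of 23 members and lower for 0 (23.1% and 17.7% over all genes), with a median of 2.59. Col1a1 was at 71.0, 84.1, 72.8, 70.6 and 92.1 CPM in CON and 753, 1719, 1665, 1446 and 1122 CPM in dnOGAh hearts (log2 fold change 4.10, standard error 0.362). Col3a1, which with Col1a1 forms most of the fibrillar collagen of the heart, was at 84.6, 115, 106, 89.2 and 155 CPM in CON and 1510.5, 3244, 3047, 2634 and 2329 CPM in dnOGAh hearts (log2 fold change 4.54, standard error 0.413). dnOGAh replicate 1, nearest the CON hearts on the first principal component, was the lowest dnOGAh heart for both. Col4a3 (-0.29) and Col4a4 (-0.32), of basement membrane, were not called. Of 25 other matrix and crosslinking genes 22 were higher and 1 lower, among them Loxl2 (2.77), a crosslinking enzyme.

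Markers of activated fibroblasts were higher for 9 of 12 genes and lower for 0 (23.1% and 17.7% over all genes). Their summed level was 204.2 to 254 CPM in CON and 833 to 2016 CPM in dnOGAh hearts. Postn, periostin, was at 27.1, 25.9, 26.8, 27.8 and 30.6 CPM in CON and 365, 865, 1066, 618 and 486 CPM in dnOGAh hearts (log2 fold change 4.62, standard error 0.438). Lox (4.44), lysyl oxidase, and Meox1 (2.68), a factor of fibroblast activation, were higher, whereas Acta2, smooth muscle actin, had -0.18 and was not called. Resident fibroblast markers were higher for 8 of 10 and lower for 2, Scara5 (-1.30) and Gsn (-0.71), and their sum overlapped between the groups (2279 to 2704 CPM in CON, 2492 to 2668 CPM in dnOGAh). Pdgfra (1.04) and Cd248 (1.17) were among the higher ones.

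Markers of macrophages and monocytes were higher for 12 of 13 genes, and none was lower (23.1% and 17.7% over all genes). Their sum was 354 to 436 CPM in CON and 2147 to 3310 CPM in dnOGAh hearts, with none of the 13 at 0 in all hearts. Ccr2, the chemokine receptor of recruited monocytes, was at 3.03, 2.97, 2.78, 2.29 and 2.71 CPM in CON and 41.3, 90.4, 68.6, 62.9 and 51.1 CPM in dnOGAh hearts (log2 fold change 4.50, standard error 0.466). Lyz2 (2.94), lysozyme, and C1qa (2.58), a complement subunit, were higher. Lymphocyte markers were higher for 8 of 11, at sums of 2.54 to 9.22 CPM in CON and 47.0 to 94.3 CPM in dnOGAh hearts. Most of the sum in dnOGAh hearts came from Ptprc (CD45), which macrophages also express, so the sums do not measure lymphocytes alone. T and natural killer cell genes (Cd4 3.77, Gzma 5.09, Nkg7 5.45) were among the higher ones, and the B cell genes Ms4a1 and Cd79a were not called. Of 20 inflammation and interferon genes 18 were higher, 0 lower, with a median of 3.56. Ccl2, the chemokine that recruits monocytes, was at 1.57, 1.48, 3.60, 0.970 and 1.58 CPM in CON and 62.6, 57.5, 26.0, 35.9 and 42.9 CPM in dnOGAh hearts (log2 fold change 4.59, standard error 0.439). Isg15 (3.58) and Ifit3 (3.41), induced by interferon, and Lgals3 (5.69), galectin-3, were higher, while S100a8 (-0.29) and S100a9 (-0.17), abundant in neutrophils, were not called. Some of these genes are themselves expressed by the cells whose markers moved, and the part of cell composition in them was not tested.

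Cell cycle genes were higher for 14 of 15, and none was lower (23.1% and 17.7% over all genes). Mki67, the proliferation marker, was at 2.33, 2.18, 2.46, 2.65 and 3.95 CPM in CON and 17.8, 27.0, 24.9, 18.2 and 17.4 CPM in dnOGAh hearts (log2 fold change 2.99, standard error 0.274), and Top2a (2.78) and Ccnb2 (2.86) were higher. Pcna was not called (0.23). Endothelial markers were lower for 9 of 14 and higher for 0, with sums of 2195 to 2751 CPM in CON and 1179 to 1618 CPM in dnOGAh hearts. Pecam1 was at 160.5, 154, 158, 169.7 and 145 CPM in CON and 107, 90.5, 91.3, 99.3 and 109 CPM in dnOGAh hearts (log2 fold change -0.66, standard error 0.149), while Vwf had 0.15 and was not called. Of 11 smooth muscle and pericyte markers 2 were higher and 4 lower, beside 23.1% and 17.7% over all genes. Their sums were 3590 to 3984 CPM in CON and 5695 to 8897 CPM in dnOGAh hearts, but without Des, which made up most of them, 856 to 987 CPM in CON and 545 to 675 CPM in dnOGAh hearts. Abcc9 (-1.65) and Kcnj8 (-0.90), which form a potassium channel of pericytes and are also expressed in heart muscle, were lower, and Des (1.13), an intermediate filament protein that cardiomyocytes share, was higher.

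Markers of atrium, fat and red cells varied between hearts of the same group. The atrial light chain Myl7 was at 32.5, 409.9, 6.69, 83.3 and 27.1 CPM in CON and 55.9, 50.1, 16.0, 48.9 and 20.9 CPM in dnOGAh hearts, and Sln, the atrial regulator of SERCA, at 7.52, 130.1, 4.04, 23.7 and 9.03 CPM in CON and 15.4, 21.5, 7.92, 34.0 and 9.49 CPM in dnOGAh hearts. CON replicate 2 was far above the others for both, and neither was called. Adipocyte markers summed to 1.62 to 24.0 CPM over all 10 hearts, and 0 of 5 tested were called (40.8% over all genes). The red cell genes Hba-a1 and Hbb-bs were highest in CON replicate 1, at 378 and 602 CPM, and were not called. Pf4, a platelet gene that macrophages also express, was higher in dnOGAh hearts (0.99). Of 5 tested skeletal muscle genes Acta1 (1.19, adjusted p = 0.0426) was higher in this fit but was not called when any one of the 5 CON hearts was left out (adjusted p 0.0540 to 0.0853), without dnOGAh replicate 1, 4 or 5 (0.0534 to 0.0939) or by the DESeq2 Wald test (0.0528), and Ckm (-2.10), which cardiomyocytes express strongly, was lower.

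The genotype difference at ZT16 was set against the other 5 times by testing, in the same fit, the ZT16 log2 fold change minus the mean of the other 5. None of the 18119 genes passed (0%) by edgeR's quasi-likelihood test, and 451 (2.49%) had an unadjusted p under 0.05. This last count was 263 without CON replicate 1, 718 without CON replicate 2, and 706 without 3 libraries at other times (dnOGAh ZT12 replicate 3 and both ZT4 replicates 4). The DESeq2 Wald test and limma voom also called 0, with 561 and 872 unadjusted. In the same edgeR test 0 genes passed at ZT0, ZT4, ZT8 and ZT12 and 3 (0.0166%) at ZT20. An unadjusted p under 0.05 was found for 2.1%, 3.48%, 4.4%, 2.29% and 5.33% of genes in the order of these 5 times. If no gene differed and p-values were uniform, a share of 0.05 would be under 0.05, and the ZT16 share was below it. The lack of a call thus does not show that the difference at ZT16 equals that at the other times. The number of genes called at ZT16 (40.8%) lay among those of the other times, which were 7706 (42.5%) at ZT0, 5924 (32.7%) at ZT4, 8347 (46.1%) at ZT8, 5770 (31.8%) at ZT12 and 7241 (40%) at ZT20. Of the 7387 genes called at ZT16, 4077 were called in the same direction at all 6 times. The genes called at ZT16 and at ZT8 numbered 6376, and 1 gene called at both ZT16 and another time had the opposite direction there, at ZT0. Across genes the log2 fold changes at ZT16 had a Pearson correlation of 0.826 to 0.880 with those at the single other times (18119 genes, which are not independent replicates, from separate hearts scaled together).

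**Figure D3:**
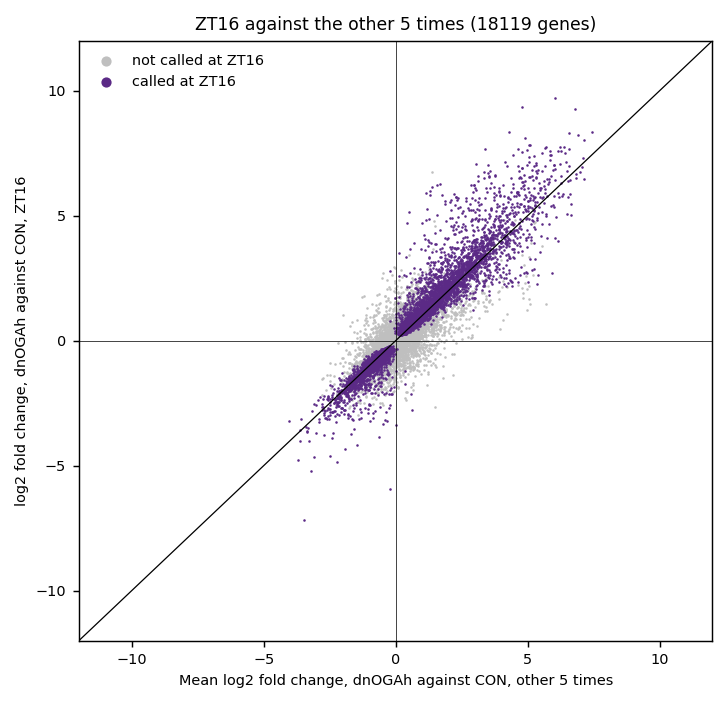
Log2 fold change of dnOGAh over CON at ZT16 (y axis) against the mean of the log2 fold changes at the other 5 times (x axis), 1 point for each of 18119 genes, with purple for genes called at ZT16 and the diagonal of equal change. The points follow the diagonal, and no gene passed the test of a difference from it.

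Medians of the gene lists at ZT16 were set beside those at the other times. The 34 genes of the TCA cycle and oxidative phosphorylation had medians of -1.196 to -0.78 at the other times and -0.97 at ZT16. The collagen median of 2.59 was above those of the other times (1.53 to 2.46), and 4 of its 23 members, Col3a1, Col5a3, Col6a3 and Col15a1, had an unadjusted p under 0.05 for the difference, with none passing. The cell cycle median of 2.22 was below those of the other times (2.37 to 3.06), and 1 of its 15 members, Ccnb1, had such a p. The glucocorticoid-responsive median was -0.27 at ZT16 and -0.10 to 0.13 at the other times, with 2 of 19 members, Glul and Lcn2, at such a p. Over all genes 2.49% had one. Other lists also had their most extreme median at ZT16. Among them were the activated fibroblast markers (3.02, against 2.02 to 2.85 at the other times). The metabolic and signaling genes that the study names had -0.96, against -0.85 to -0.65. These lists were picked for mention after their medians were seen.

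**Figure D4:**
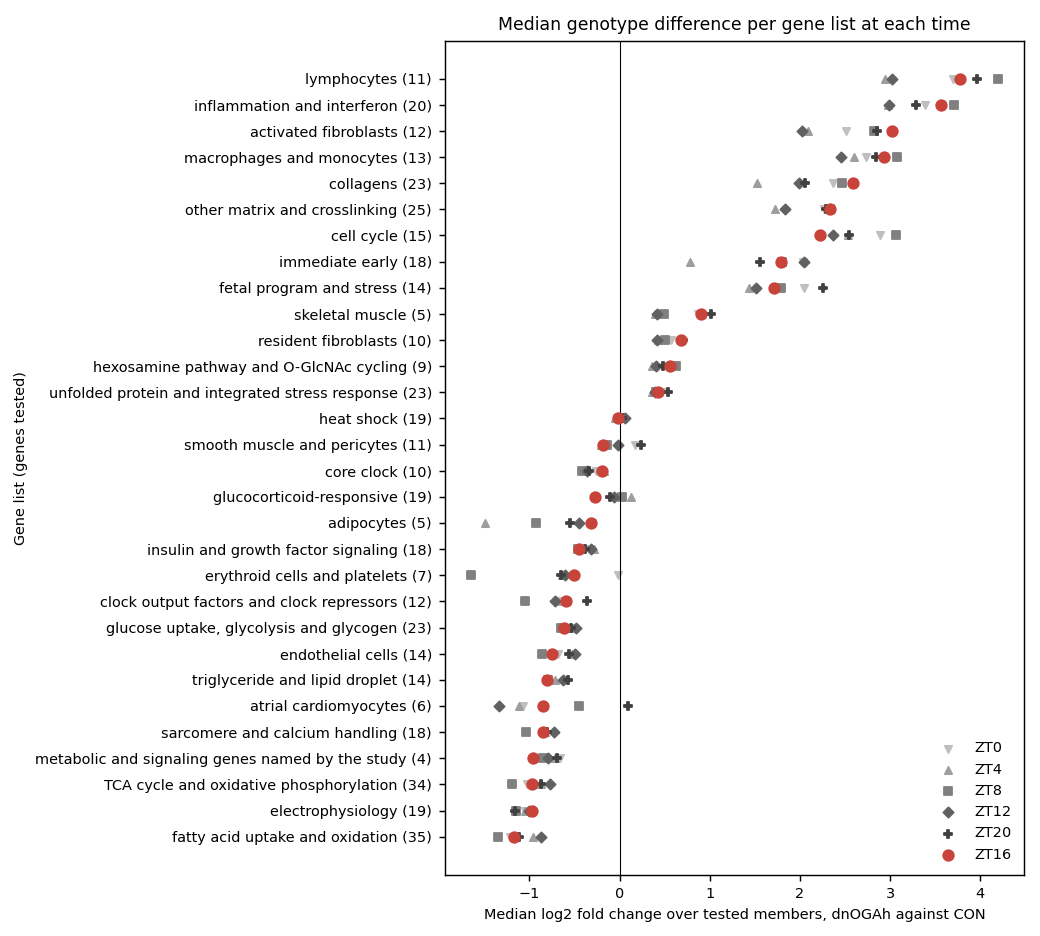
Median log2 fold change of dnOGAh over CON (x axis) over the tested members of each of 30 gene lists (y axis, number tested in parentheses) at ZT16 (red) and at the other 5 times (grey symbols). Red points lie within or next to the grey ones for most lists, and for the collagens the ZT16 median of 2.59 is the highest of the 6.

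The 10 genes with the smallest p for a difference at ZT16, among those at 1 CPM or more, did not pass (adjusted p = 1.00 for each, edgeR's quasi-likelihood test). Uvrag, which acts in autophagy and DNA repair, had the smallest. It was at 33.1, 30.9, 29.8, 35.1 and 31.0 CPM in CON and 22.7, 21.0, 27.5, 26.6 and 22.6 CPM in dnOGAh hearts, so that all dnOGAh hearts were lower. The log2 fold change at ZT16 was -0.41 (standard error 0.0929, adjusted p = 0.000300), and at the other times it lay between -0.21 and 0.01, with no call. The difference from their mean was -0.36 (unadjusted p = 0.000922). Within CON hearts ZT16 differed from the other times by 0.31 on the log2 scale (adjusted p = 0.0593), and within dnOGAh hearts by -0.05 (adjusted p = 1.00).

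Vegfc, a growth factor of lymphatic vessels, was at 12.7, 7.34, 11.5, 7.14 and 8.92 CPM in CON and 6.70, 5.26, 6.11, 6.64 and 6.14 CPM in dnOGAh hearts (log2 fold change -0.63, against -0.34 to 0.11 at the other times, unadjusted p of the difference 0.00394). Dtd2, a deacylase of mischarged transfer RNA, was at 11.7, 10.1, 11.7, 11.1 and 10.0 CPM in CON and 4.49, 6.53, 7.44, 6.25 and 7.18 CPM in dnOGAh hearts (log2 fold change -0.78, against -0.49 to 0.02, unadjusted p 0.00327). The groups did not overlap at ZT16 for either gene. Gpatch3 was the one gene of the 10 not called at ZT16, at 4.65, 4.00, 5.68, 5.29 and 5.19 CPM in CON and 3.69, 5.59, 5.65, 4.71 and 5.80 CPM in dnOGAh hearts (0.04), whereas it was called higher at all 5 other times (0.58 to 0.83, unadjusted p of the difference 0.00598). Cdc45, a component of the replicative helicase, was at 1.62, 2.64, 1.71, 2.73 and 2.03 CPM in CON and 4.08, 4.84, 4.39, 4.39 and 4.62 CPM in dnOGAh hearts (log2 fold change 1.06, against 0.17 to 0.86, unadjusted p 0.00646).

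A further 4 of these genes are given with and without CON replicate 1. For Il18rap, a subunit of the interleukin-18 receptor, the CON hearts were at 1.08, 0.247, 0, 0.0882 and 0.226 CPM, and without replicate 1 the difference went from -2.25 to -1.005 (unadjusted p = 0.268). For Prr3 it went from 0.69 to 0.42 (unadjusted p = 0.0291), for Dzip1l from 0.79 to 0.59 (unadjusted p = 0.0263) and for Lrrc75a from 0.63 to 0.50 (unadjusted p = 0.0230). Of the genes above, it went from -0.54 to -0.41 for Vegfc (unadjusted p = 0.0289) and from 0.70 to 0.61 for Cdc45 (unadjusted p = 0.0228). It went from -0.36 to -0.34 for Uvrag (unadjusted p = 0.00219) and from -0.51 to -0.49 for Dtd2 (unadjusted p = 0.00778). For Gpatch3 it went from -0.66 to -0.68 (unadjusted p = 0.00685, edgeR's quasi-likelihood test throughout). CON replicate 1 is the library with the fewest detected genes, and the part of that in these values was not tested.

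**Figure D5:**
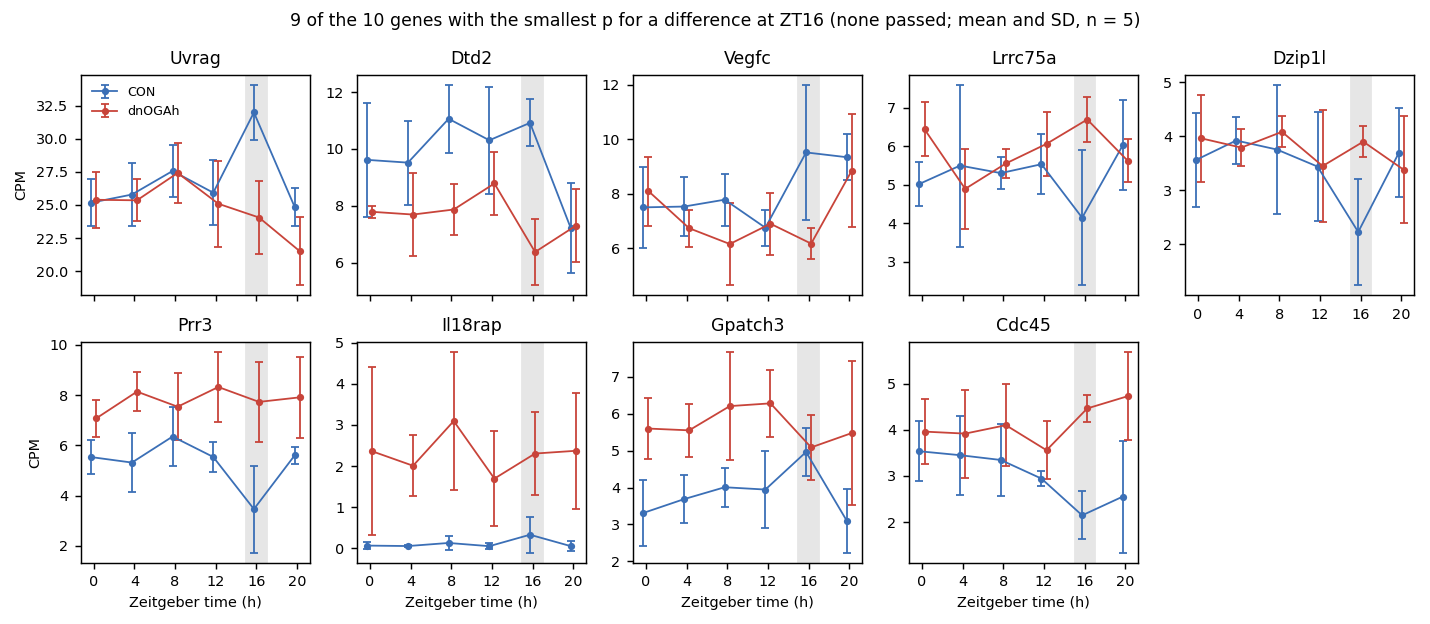
Levels (y axis, CPM, axes not starting at 0) of 9 of the 10 genes with the smallest p for a genotype difference at ZT16 unlike the other 5 times, against zeitgeber time (x axis, h), as means with SD bars of 5 hearts per point for CON (blue) and dnOGAh (red). For Uvrag the CON mean is highest at ZT16 (shaded), and none of the 9 genes passed after adjustment.

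Genes called at ZT16 and at no other time numbered 389. Of these, 103 had an unadjusted p under 0.05 for the difference from the other times, and the others were at 0.05 or above. Over all genes 2.49% had such a p. The 389 were picked on the same values that the difference is made of. An excess of small p among them is thus built in and says nothing about ZT16. Named genes called only at ZT16 were Uvrag, Vegfc, Lrrc75a and Dzip1l. A further 99 genes were called at all 5 other times and not at ZT16, with Gpatch3 among them. Against single times, comparisons added after the data were seen, 0 genes passed for ZT0, ZT4, ZT8 and ZT12 (423, 635, 472 and 358 unadjusted) and 1 for ZT20 (698 unadjusted). That gene was Mtfr2, which encodes a mitochondrial fission regulator (adjusted p = 0.0196, edgeR's quasi-likelihood test), and it was named for this reason. Mtfr2 was between 0.0882 and 0.703 CPM in CON and between 0.195 and 1.40 CPM in dnOGAh hearts at ZT16, while all 5 CON hearts of ZT20 were at 0 and the dnOGAh hearts between 0.445 and 2.18 CPM. The 2 genotypes overlapped at ZT16.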

How the data were processed

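Polyadenylated RNA of 60 mouse hearts was sequenced with a strand-specific kit. According to the submitters' processing notes, the authors trimmed reads with Trim Galore 0.6.7, aligned them to GRCm39 with STAR 2.7.10b and deposited HTSeq 2.0.2 counts per gene. The annotation release and the strand setting of HTSeq are not given in the sources used here, so overlapping and antisense genes are uncertain. The deposited counts held 53700 genes, of which 52093 were named from a table of GENCODE M21, and 5 summary rows with 23.1% to 48.7% of counts per library, which were left out.

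Groups followed the labels. Counts were fitted with edgeR 4.0.16 (R 4.3.3, quasi-likelihood test, TMM, filterByExpr with a minimum count of 10, 12 groups, no covariate), and 18119 genes were tested with Benjamini-Hochberg adjustment. Contrasts were the genotype difference at ZT16, and that difference minus the mean of the differences at the other 5 times. Intervals are at 95%. Group differences in library measures were tested by exact permutation. Each library is 1 heart, and p-values measure the spread between hearts. Higher totals in dnOGAh libraries make their low levels more precise than those of CON libraries.

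Members and gene lists were chosen with earlier results of these data known. Named genes were Oga, Ogt, the core clock and the clock output and metabolic genes the study names, the 10 largest and 10 smallest log2 fold changes among called genes at 5 CPM or more with groups that do not overlap, the 4 members of each list with the smallest p, and the 10 genes at 1 CPM or more with the smallest p for the second contrast. Some genes that these rules select are not reported here, though counts over lists include them. Other members given as values came from the lists after their values were seen. Alternatives were DESeq2 1.42.0 size factors and its Wald test, limma 3.58.1 voom with sample weights, other filters, scaling without mitochondrial genes, only the ZT16 libraries, a replicate block, 3 libraries left out at other times (dnOGAh ZT12 replicate 3, and replicate 4 of both genotypes at ZT4), and each ZT16 library left out. Promoter sequences and coordinates are from RefSeq (GRCm38.p6), not the build of the counts.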

Additional observations from a re-analysis of the deposited data

Results flagged for a closer look

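In each group of 5 hearts at ZT16, the highest or lowest heart was set against the others by Dixon's criterion (critical value 0.71). Of 306 groups, 22 (7.19%) had a heart apart. The criterion's rate of about 1 in 20 holds for independent, normally distributed values. CPM of genes from the same hearts need not be such values, so the 2 rates cannot be compared. CON replicate 1 had 9 of them, CON replicate 2 had 5, CON replicates 3 and 5 and dnOGAh replicate 2 had 2 each and dnOGAh replicates 1 and 3 had 1 each.

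CON replicate 1, with the fewest detected genes, was at -50.7 on the second principal component (10.7 to 15.0 in the other CON hearts). It was high for the red cell genes Hba-a1 (378 CPM, others 49.7 to 104) and Hbb-bs (602 CPM, others 77.0 to 173), for Acsm5 (16.0 CPM, others 9.08 to 9.60), for Nr1d1 (26.3 CPM, others 14.2 to 16.5) and for Il18rap (1.08 CPM, others 0 to 0.247). It was low for the macrophage gene Cx3cr1 (0.487 CPM, others 3.17 to 4.04), for Nr1d2 (34.8 CPM, others 50.4 to 54.2) and for Ogt (55.4 CPM, others 59.4 to 60.4).

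CON replicate 2 was high for the atrial genes Myl7 (410 CPM, others 6.69 to 83.3) and Sln (130 CPM, others 4.04 to 23.7) and for the adipocyte genes Cfd (15.5 CPM, others 2.00 to 3.61), Cidec (2.35 CPM, others 0 to 0.339) and Retn (1.52 CPM, others 0 to 0.441). CON replicate 3 was high for Nppb (147 CPM, others 61.3 to 80.9) and Ccl2 (3.60 CPM, others 0.970 to 1.58). CON replicate 5 was high for Col8a1 (25.1 CPM, others 18.3 to 18.9) and Mki67 (3.95 CPM, others 2.18 to 2.65).

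Among the dnOGAh hearts, replicate 2 was high for Arntl (9.26 CPM, others 4.07 to 5.29) and Birc5 (11.3 CPM, others 5.996 to 7.25). Replicate 1 was high for Pnpla2 (243 CPM, others 191 to 197), and replicate 3 for Dzip1l (4.39 CPM, others 3.70 to 3.90).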

How the results depend on the processing

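The count of 7387 genes at ZT16 ranged from 6501 to 7410 with one ZT16 library left out (4185 higher became 3803 to 4251, and 3202 lower became 2686 to 3159), and was 6864 without replicate 1 of both genotypes, a setting added after the data were seen. It was 7417 with DESeq2 size factors, 7854 by the DESeq2 Wald test, 10294 by limma voom (4828 lower), 6699 at 1 CPM or more, 6539 without a filter, 7798 with the ZT16 libraries alone and 3749 at over 2-fold (2701 higher, 1048 lower). Without the 3 libraries at other times the count at ZT16 was 8746 (4927 higher, 3819 lower). The test against the other 5 times called 0 genes in every alternative except 1 against ZT20 alone. In the alternatives that called 0, the smallest adjusted p was 0.0513, without CON replicate 3.

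Replicate numbers did not pair the hearts (correlations of same-numbered hearts -0.0343 to 0.0564). A replicate block gave 7454 calls at ZT16 and 0 against the other times and changed no call of a named gene.

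Calls of 10 of the genes reported here changed. Acta1, Itga2b and Uap1 were lost in some alternatives, and Cry1, Dbp, Nr1d2, Ogt, Per1, Tnni2 and Tnnt3 were gained in some. The direction of 15 values, none of them called, turned, and the cause was not tested. Without replicate 1 of both genotypes Cidec was -0.51 and Nr1d1 0.12 at ZT16, and the differences from the other times were -0.0078 for Clock and -0.067 for Nr1d2. By voom Cidec was -0.12, Nr1d1 0.096 and Per2 0.048, and Per2 was 0.0065 with DESeq2 size factors and 0.0077 by its Wald test. Against ZT12 and ZT20 the Nr1d1 difference was -0.00093. With one library left out the ranges were -1.20 to 0.54 (Cfd), -0.24 to 2.37 (Cidec), -0.093 to 0.019 (Clock), -0.032 to 0.14 (Gpatch3), -1.86 to 0.040 (Myl7), -0.22 to 0.013 (Nfil3), -0.16 to 0.099 (Nr1d1), -0.071 to 0.073 (Per2), -0.69 to 0.65 (Plin1), -1.59 to 0.15 (Retn) and -1.38 to 0.69 (Sln), and for differences from the other times -0.29 to 0.062 (Arntl), -0.046 to 0.065 (Clock), 0.24 to 0.50 (Nr1d1) and -0.012 to 0.17 (Nr1d2).

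With 5 hearts per group the standard error of a difference between times had a median of 0.280 on the log2 scale over genes.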
